A study of Ovis aries with 18 samples.

Results

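Of the 364 small RNA features counted in sheep plasma, 257 carry no miRNA name, only an identifier made of a prefix that marks a new sheep miRNA and a running number. All 257 were taken by that prefix, with no use of their values, and the other 107 features carry miRNA names. They are written here as unnamed miRNA 1 to 257, a description built on the running number and not the identifier itself. The plasma came from female Polish Longwool sheep, all of them ovariectomized and carrying estradiol implants, 6 of them fed a control diet (CTRL) and 6 a diet high in fat (OBESE). The study concerns leptin resistance in obesity. Blood was drawn at weeks 7, 10 and 14, and the series holds 3 libraries per diet and week, 18 in all. Whether a library stands for 1 ewe or for pooled plasma is not in the labels, nor is the meaning of a replicate number. A p-value given below thus measures library-to-library spread, which may be partly technical. The same ewes may stand behind libraries of different weeks.

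MicroRNAs are short RNAs cut from hairpin precursors, and they guide Argonaute proteins to messenger RNAs through a seed near their 5′ end. In plasma they circulate in vesicles and in protein complexes, and much of this RNA comes from blood cells and platelets. Prediction programs call a new miRNA where small RNA reads stack on a genomic hairpin. Such a call can be a real miRNA that lacks a name in the species, a further copy of a known one, or a fragment of another small RNA. The files read here pair no sequence or position with the 257 identifiers. No seed, family or host gene is given for them, and whether each is a miRNA was not tested.

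Library totals ran from 388574 counts (CTRL week 10 replicate 1) to 1269829 counts (CTRL week 10 replicate 3). A count of 3, taken as the smallest that can be told from 0, is worth 2.22 to 7.15 CPM in these libraries. CPM are counts scaled to a common library size after TMM scaling, a correction for composition. Scaling factors reached 1.19 and were lowest in replicate 1 of CTRL week 7 (0.653) and replicate 3 of CTRL week 14 (0.718). These 2 libraries had the highest miR-16b shares at 53.9% and 55.1%, and the lowest shares of unnamed counts outside unnamed miRNAs 1 and 2. Plasma has no cells of its own, so the label was checked against miRNAs of possible source cells. Of the red blood cell list 3 of 8 were among the named features, summing to 359332 to 828880 CPM, and nearly all of it was miR-16b. Of the platelet list 3 of 6 were present (24785 to 56018 CPM) and of the lymphocyte list 1 of 2, miR-150 (2363 to 26777 CPM). The liver list had miR-148a at 0 to 43.1 CPM and no miR-122 row, and the muscle list had miR-133 at 2.38 to 127 CPM.

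Unnamed miRNAs made up 70.6% of the features and held 32.1% of all counts, unevenly spread over them. Their share per library ran from 27.8% in OBESE week 10 replicate 2 (95% Wilson interval 27.7% to 27.9%) to 37.2% in CTRL week 7 replicate 2 (37.1% to 37.3%), with a median of 32.0%. These intervals cover counting error only and are far narrower than the spread between libraries. In plasma, fewer source cells and less RNA released per cell cannot be told apart. The mean share was 32.4% ± 2.43 (SD, n = 9) on the control diet and 32.1% ± 2.74 (SD, n = 9) on the high-fat diet. The difference of -0.296 percentage points lay within that spread (two-sided exact permutation of diets within weeks, p = 0.820, adjusted p = 0.820 over 4 measures). Within weeks the diets overlapped: 31.6% to 37.2% in CTRL and 29.3% to 33.2% in OBESE at week 7, 29.8% to 35.0% and 27.8% to 36.5% at week 10, and 30.2% to 32.7% and 30.2% to 34.6% at week 14.

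**Figure D1:**
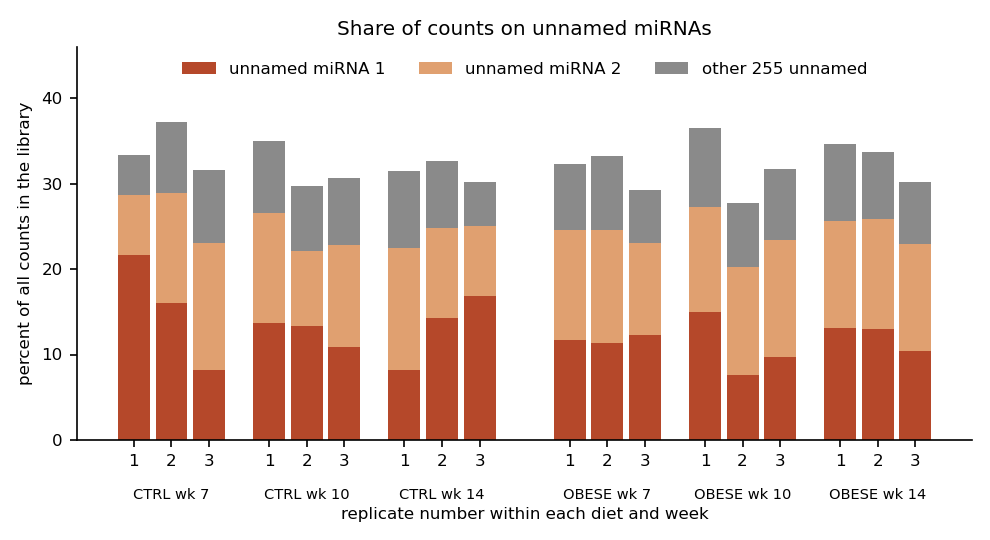
Share of each library's counts held by unnamed miRNA 1, unnamed miRNA 2 and all other unnamed miRNAs, in percent of all miRNA counts (vertical axis), in each of the 18 libraries ordered by diet, week and replicate number (horizontal axis). The whole bars reach 27.8% to 37.2%, and the 2 lower segments make up most of every bar.

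Unnamed miRNAs 1 and 2 carried most of that share. Unnamed miRNA 1 ran from 7.57% of counts (OBESE week 10 replicate 2) to 21.7% (CTRL week 7 replicate 1). Unnamed miRNA 2 ran from 6.96% (CTRL week 7 replicate 1) to 14.9% (CTRL week 7 replicate 3). The library with the highest share of the first was the library with the lowest share of the second. Shares are parts of 1 total, and on the CPM scale the lowest value of unnamed miRNA 2 (91180) was in another library. On the CPM scale, unnamed miRNA 1 stood in the CTRL libraries at 332261, 169261 and 77962 at week 7, at 126994, 136691 and 109096 at week 10 and at 73333, 136969 and 235318 at week 14. In the OBESE libraries it stood at 106190, 99208 and 138221 at week 7, at 125744, 74834 and 87939 at week 10 and at 115034, 131483 and 97675 at week 14. Its 2 highest CPM values were in the 2 libraries with low scaling factors, which raise every CPM value there, but its 2 highest unscaled shares (21.7% and 16.9%) were in those libraries too. The diets overlapped at every week. Unnamed miRNA 2 was steadier, at 91180 to 142496 CPM in CTRL and 102859 to 130545 CPM in OBESE libraries. All other unnamed miRNAs together took 4.66% to 9.25% of a library, 7.51% ± 1.56 (SD, n = 9) for CTRL against 7.97% ± 0.967 for OBESE (difference 0.466 percentage points, exact permutation p = 0.475, adjusted p = 0.633). Without the 2 libraries with low factors that difference was -0.333 percentage points, of the opposite sign (exact permutation p = 0.473, adjusted p = 0.658).

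Most unnamed miRNAs were scarce. Their mean count per library had a median of 4.28, beside 6.72 for the named features. Of the 257, 51 averaged below 1 count, 101 from 1 to 10, 53 from 10 to 100, 38 from 100 to 1000, 11 from 1000 to 10000 and 3 above 10000. The most abundant member held 39.3% of all unnamed counts, the first 2 held 76.0%, the first 5 held 87.0%, the first 10 held 90.4%, and 51 members held 99%. Next after unnamed miRNAs 1 and 2 came unnamed miRNA 3 with 1.79% ± 0.46 of a library's counts, unnamed miRNA 4 with 0.915% ± 0.23 and unnamed miRNA 5 with 0.852% ± 0.254 (SD, n = 18). Unnamed miRNAs 7, 6, 10, 11 and 19 followed, from 0.298% ± 0.0625 for unnamed miRNA 7 to 0.154% ± 0.0565 for unnamed miRNA 19. Unnamed miRNAs 1 and 2 differed by less than their spread over libraries, as did 4 and 5, 7 and 6, 6 and 10, 10 and 11, and 11 and 19. The steps from 2 to 3, from 3 to 4 and from 5 to 7 were wider than that spread.

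**Figure D2:**
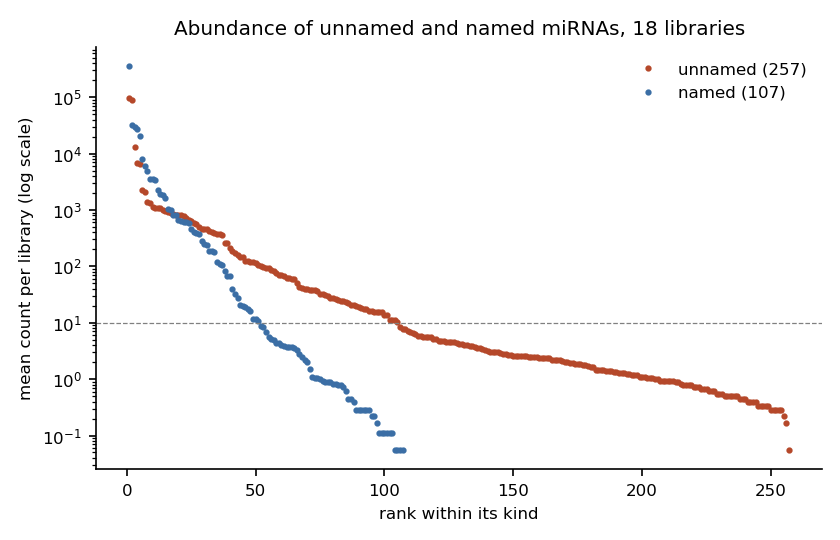
Mean count per library on a log scale (vertical axis) against rank by mean count (horizontal axis), for the 257 unnamed and the 107 named features, each ranked among themselves, with a dashed line at 10 counts. Both curves fall over several orders of magnitude, and the median feature averages 4.28 counts among the unnamed and 6.72 among the named.

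Detection followed this abundance. Every unnamed miRNA had at least 1 count in some library, 100 (38.9%) had one in all 18 libraries, 107 in 7 to 17 libraries and 50 in 1 to 6. Of the named features 50 of 107 (46.7%) had a count in all 18. A library held 160 to 215 unnamed miRNAs with at least 1 count and 84 to 124 with at least 10. The number with at least 1 count averaged 181.3 ± 15.3 for CTRL against 187.3 ± 14.5 for OBESE (SD over 9 libraries), a difference of 6 (exact permutation p = 0.367, adjusted p = 0.633). At the depth of the smallest library, the expected number was 168.4 ± 9.57 and 173.5 ± 7.88, a difference of 5.05 (exact permutation p = 0.218, adjusted p = 0.633). At week 7 the detected numbers did not overlap, with 160 to 177 in CTRL and 181 to 186 in OBESE libraries. That gives an exact permutation p of 0.1, the smallest that 3 libraries against 3 allow, and at equal depth the ranges were 149 to 169 and 165 to 177, which overlap.

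The running numbers fell with abundance. Over numbers 1 to 219, Spearman's rho between the number and the mean count was -0.949 (219 features). Numbers 198 to 219 averaged 0.167 to 4.83 counts, and then the order started again, with mean counts of up to 410 (unnamed miRNA 222) and a further rise to 261 at unnamed miRNA 244. Over numbers 220 to 257 rho was -0.561 (38 features). The break at 220 was chosen after the values were seen, and these are descriptions across features. No source used here says what the break stands for.

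Some unnamed miRNAs had almost the same counts in every library. Among 176 features averaging at least 5 counts (120 unnamed, 56 named), 7 groups were near-identical, meaning that their counts differed by at most 2 or by at most 5% of the larger in each of the 18 libraries. The groups held 15 unnamed and 0 named features. Unnamed miRNAs 220, 225 and 238 had equal counts in all 18 libraries, from 4 to 80 with a mean of 38.8. Unnamed miRNAs 223 and 229 were equal in 17 libraries (means 145.5 and 145.6), 54 and 80 in 17 (32.6 and 32.7), 45 and 46 in 14 (63.0 and 63.2), and 40 and 41 in 8 (68.8 and 69.1). The pair of 8 and 9 was the most abundant, with means of 888 and 862, and differed in every library, by up to 80 counts or 4.94%. The last pair, 96 and 97, averaged 5.72 and 5.61 counts. Unnamed miRNAs 87 and 88, named after their values were seen, fell just outside, with equal counts in 16 libraries and up to 4 counts of difference. Counting every exact match, low counts included, 14 unnamed rows equalled another row. Reads that match several loci can give such rows, but the assignment rule is not given in the sources used here. Members of 1 group are therefore uncertain as separate miRNAs, and they count as separate features in the tests below.

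The diet question was whether any unnamed miRNA differed between OBESE and CTRL libraries, averaged over weeks or at 1 week. Of the 257, 114 had enough counts to be tested, with 54 named features. The 143 others held 0.0213% to 0.0458% of a library's counts. The filter works on counts per group, and the lowest mean count tested was 4.28 while the highest left out was 5.83. Averaged over weeks, 0 of the 114 passed an adjusted p of 0.05 in edgeR's quasi-likelihood test, and 0% of all 168 features tested did. At an unadjusted p under 0.05 there were 14 of 114 unnamed miRNAs or 12.3%, beside 11.3% of all features. Of these, 6 were higher in OBESE (background 5.95%) and 8 lower (background 5.36%). limma-voom called 0 with 15 at an unadjusted p under 0.05. DESeq2, run without this filter on all 364 features (257 unnamed), called 2 unnamed miRNAs, 22 and 27, and 3 features in all. It gave an adjusted p to 112 of the 257, and 20 of the 257 had an unadjusted p under 0.05. That count has another base than the 14 of 114. The median log2 fold change was -0.04 over the unnamed and 0.00 over all features tested. Without scaling factors both medians moved up alike, to 0.13 and 0.16, and the unnamed median stayed just below that of all features.

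Unnamed miRNA 22 had the smallest p for the averaged diet difference. At week 7 it stood at 642, 821 and 855 CPM in CTRL and 1170, 1113 and 1237 CPM in OBESE libraries. At week 10 it stood at 832, 1166 and 902 CPM in CTRL and 1009, 1599 and 1690 CPM in OBESE libraries. At week 14 it stood at 893, 804 and 709 CPM in CTRL and 979, 943 and 1129 CPM in OBESE libraries. The diets did not overlap at weeks 7 and 14 and overlapped at week 10. The averaged log2 fold change was 0.50 (SE 0.125, edgeR adjusted p = 0.113), positive in all 3 weeks, and the adjusted p ran from 0.0192 to 0.274 over the alternatives. Without OBESE week 10 replicate 1 it passed the test (edgeR adjusted p = 0.0212).

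Unnamed miRNA 27 followed (log2 fold change -2.69, SE 0.809, edgeR adjusted p = 0.167). In CTRL libraries it stood at 1142, 2382 and 64.9 CPM at week 7, at 2479, 2571 and 65.6 at week 10 and at 3612, 1775 and 89.7 at week 14. In OBESE libraries it stood at 137, 3143 and 107 CPM at week 7, at 142, 76.8 and 130 at week 10 and at 115, 89.3 and 113 at week 14. CTRL replicates 1 and 2 were high at every week, and CTRL replicate 3 was below every OBESE library of the same week at weeks 7 and 10. Without OBESE week 7 replicate 2 its log2 fold change was -3.77 and passed the test (edgeR adjusted p = 0.0194). The next 3 by p were the near-identical 46 and 45 (log2 fold changes 1.63, SE 0.567, and 1.61, SE 0.563) and unnamed miRNA 223 (0.55, SE 0.195), each at an edgeR adjusted p of 0.202. Without OBESE week 7 replicate 3 the log2 fold changes of 46 and 45 were 0.81 and 0.80, and with limma-voom 0.87 and 0.85. The averaged diet test takes libraries of equal replicate number as independent, while unnamed miRNAs 27, 45 and 46 also passed the replicate number test below. Their p for diet may thus be too small.

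At single weeks, 0 of 114 unnamed miRNAs passed the adjusted test at any of the 3 weeks, beside 0% of all features each time. DESeq2 and limma-voom also called 0 at each. At an unadjusted p under 0.05, edgeR gave 5 at week 7 (background 5.36%), 3 of them higher in OBESE (background 2.98%). It gave 8 at week 10 (background 6.55%), of which 2 were higher (2.38%) and 6 lower (4.17%). At week 14 it gave 8 (background 7.74%), of which 7 were higher (5.95%). The libraries of both diets did not overlap for 13 unnamed miRNAs at week 7 (background 8.93% of features), 15 at week 10 (13.1%) and 11 at week 14 (9.52%). At week 7, unnamed miRNA 47 stood at 55.6, 120 and 107 CPM in CTRL and 273, 258 and 134 CPM in OBESE libraries, with no overlap (log2 fold change 1.23, SE 0.391, edgeR adjusted p = 0.382). Unnamed miRNA 3, the third most abundant, stood there at 18343, 25119 and 22640 CPM in CTRL and 17285, 12542 and 12106 CPM in OBESE libraries (-0.66, SE 0.218, edgeR adjusted p = 0.382). Its groups at week 7 did not overlap in CPM, and the fitted sign was positive at week 10 (0.09) and week 14 (0.29). As unscaled shares the week 7 groups overlapped, with 1.20% in CTRL replicate 1 (scaling factor 0.653) and 1.08% to 1.90% in OBESE libraries. Unnamed miRNA 233 was the third by p at week 7, at 130, 83.7 and 92.7 CPM in CTRL and 48.6, 59.1 and 31.5 CPM in OBESE libraries.

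At week 10, unnamed miRNA 35 stood at 348, 452 and 418 CPM in CTRL and 686, 677 and 552 CPM in OBESE libraries, with no overlap (log2 fold change 0.65, SE 0.219, edgeR adjusted p = 0.642). Unnamed miRNAs 27 and 22 were next at that week, with log2 fold changes of -3.87 (SE 1.47) and 0.57 (SE 0.216). At week 14, unnamed miRNA 57 stood at 58.7, 92.7 and 81.2 CPM in CTRL and 125, 125 and 161 CPM in OBESE libraries (0.82, SE 0.289, edgeR adjusted p = 0.319). Unnamed miRNA 223, a pair with 229, stood there at 122, 229 and 150 CPM in CTRL and 281, 302 and 388 CPM in OBESE libraries (0.95, SE 0.336, edgeR adjusted p = 0.319). For both of these the diets did not overlap at week 14. The smallest p at that week belonged to unnamed miRNA 111, counted 2, 0 and 2 times in CTRL and 13, 20 and 5 times in OBESE libraries. All 3 CTRL counts lie under 3, so its fitted fold is not a measure of size.

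Over time, 0 of 114 unnamed miRNAs passed the adjusted test for week 10 or 14 against week 7 in either diet, beside 0% of all features each time. DESeq2 and limma-voom also called 0 in these comparisons. The unadjusted edgeR counts in CTRL were 2 at week 10 (background 1.79%), 1 of them higher (0.595%), and 3 at week 14 (3.57%). In OBESE they were 3 at week 10 (4.17%) and 10 at week 14 (7.74%). These comparisons share the week 7 libraries of their diet. Unnamed miRNA 30 stood at 612, 635 and 753 CPM in CTRL at week 7 and at 459, 435 and 440 CPM at week 14 (log2 fold change -0.58, SE 0.247, edgeR adjusted p = 0.963). The 2 weeks did not overlap for it in CTRL after scaling. Each of them holds 1 of the 2 libraries with low scaling factors, and without scaling they overlapped. In OBESE it stood at 673, 626 and 621 CPM at week 7 and 383, 552 and 274 CPM at week 14. Unnamed miRNA 17, at 1955, 1538 and 1558 CPM in CTRL at week 7 and 862, 1321 and 1450 CPM at week 14, had a log2 fold change of -0.47 (SE 0.219). In CTRL the others named by the smallest p were 245, 34 and 68 at week 10 and 81 at week 14. Unnamed miRNA 34 stood at 308, 415 and 478 CPM at week 7 and at 629, 469 and 973 CPM at week 10 in CTRL libraries (0.79, SE 0.323). Unnamed miRNA 245 was at 15, 2 and 0 counts at week 7 and at 0 in each library at week 10.

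In OBESE libraries, unnamed miRNA 13 stood at 894, 1122 and 983 CPM at week 7 and 1499, 2527 and 1274 CPM at week 10, with no overlap (log2 fold change 0.82, SE 0.312, edgeR adjusted p = 0.897). Unnamed miRNAs 27 and 35 were next there. Against week 7, week 14 had its smallest p in OBESE for unnamed miRNAs 111, 233 and 93. Unnamed miRNA 233 went from 48.6, 59.1 and 31.5 CPM to 60.0, 156 and 115 CPM (1.24, SE 0.383, edgeR adjusted p = 0.341). Its week 14 values all lay above those of week 7, the lowest of them by less than 1 CPM. The interaction of diet and week, which asks whether the diet difference changed over the 3 weeks, called 0 of 114 with edgeR (background 0%), and also 0 with DESeq2 and limma-voom. There 4 had an unadjusted edgeR p under 0.05 (background 4.17%), and the smallest p belonged to 111, 3 and 233, at a smallest edgeR adjusted p of 0.833.

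Some unnamed miRNAs kept a level of their own in libraries that share a replicate number. An F test of replicate number within diet, added to the 6 groups of diet and week, asked for this. In this test 15 of 168 features passed an edgeR adjusted p of 0.05, a background of 8.93%, and 11 of them were among the 114 unnamed (9.65%) and 4 among the 54 named (7.41%). The unnamed share is near the background and so is no result about the unnamed group. Because 45 and 46 are near-identical, and 54 and 80 as well, the 11 calls amount to 9 profiles. limma-voom also called 11 unnamed miRNAs, 8 of them the same, and missed 48, 54 and 80 (limma-voom adjusted p = 0.0544 each).

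Unnamed miRNA 45 and its near-identical partner 46 had the smallest p (edgeR adjusted p = 6.33e-05 for each). In OBESE replicate 3 it stood at 263, 273 and 372 CPM at weeks 7, 10 and 14, above every other library. CTRL replicate 3 stood at 88.1, 62.5 and 51.3 CPM and CTRL replicate 2 at 29.6, 30.2 and 29.7 CPM. The highest value outside replicate 3 was 101 CPM, in OBESE replicate 2 at week 10.

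Unnamed miRNA 71 was nearly missing from the libraries of CTRL replicate 1 and present in those of CTRL replicate 2 and of OBESE (edgeR adjusted p = 0.000464). In CTRL replicate 1 it had 2, 0 and 0 counts at weeks 7, 10 and 14. In CTRL replicate 3 it had 10, 8 and 2, the last of them under 3 counts. CTRL replicate 2 stood at 88.9, 42.2 and 57.2 CPM over the same weeks. All 9 OBESE libraries had it, at 13.6 to 77.1 CPM, with replicate 3 the highest at each week (62.9, 77.1 and 76.8 CPM).

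Unnamed miRNA 222, the most abundant of the numbers from 220 on, stood at 1299, 1271 and 594 CPM in CTRL replicate 1 and at 348, 251 and 255 CPM in CTRL replicate 3 (edgeR adjusted p = 0.00437). In OBESE replicate 3 it was lowest, at 166, 231 and 67.2 CPM. Unnamed miRNA 54 set CTRL replicate 2 apart, at 13.9, 15.1 and 16.0 CPM, while the other 15 libraries stood at 23.7 to 77.8 CPM (edgeR adjusted p = 0.0376, as for 80). For unnamed miRNA 27, at an edgeR adjusted p of 0.0186, CTRL replicates 1 and 2 were high at all 3 weeks and CTRL replicate 3 was low at all 3. In OBESE it was not constant within a number, since replicate 2 stood at 3143 CPM at week 7 and below 100 CPM later.

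The remaining calls were unnamed miRNAs 31 (edgeR adjusted p = 0.0354), 224, 48 and 61 (0.0376 each). Unnamed miRNA 31 stood at 607, 1088 and 942 CPM over the weeks in OBESE replicate 1 and at 399, 398 and 392 CPM in OBESE replicate 3. Unnamed miRNA 224 stood at 71.5, 52.7 and 34.5 CPM in OBESE replicate 3 and at 84.1 to 197 CPM in every other library. Unnamed miRNA 48 was lowest in OBESE replicate 1 (68.4, 40.8 and 36.2 CPM) and in CTRL replicate 1 (67.2, 66.7 and 113 CPM), though single libraries of other numbers came near. Unnamed miRNA 61 was lower in CTRL replicate 3 than in the other CTRL libraries, at 16.2, 18.2 and 35.6 CPM.

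**Figure D3:**
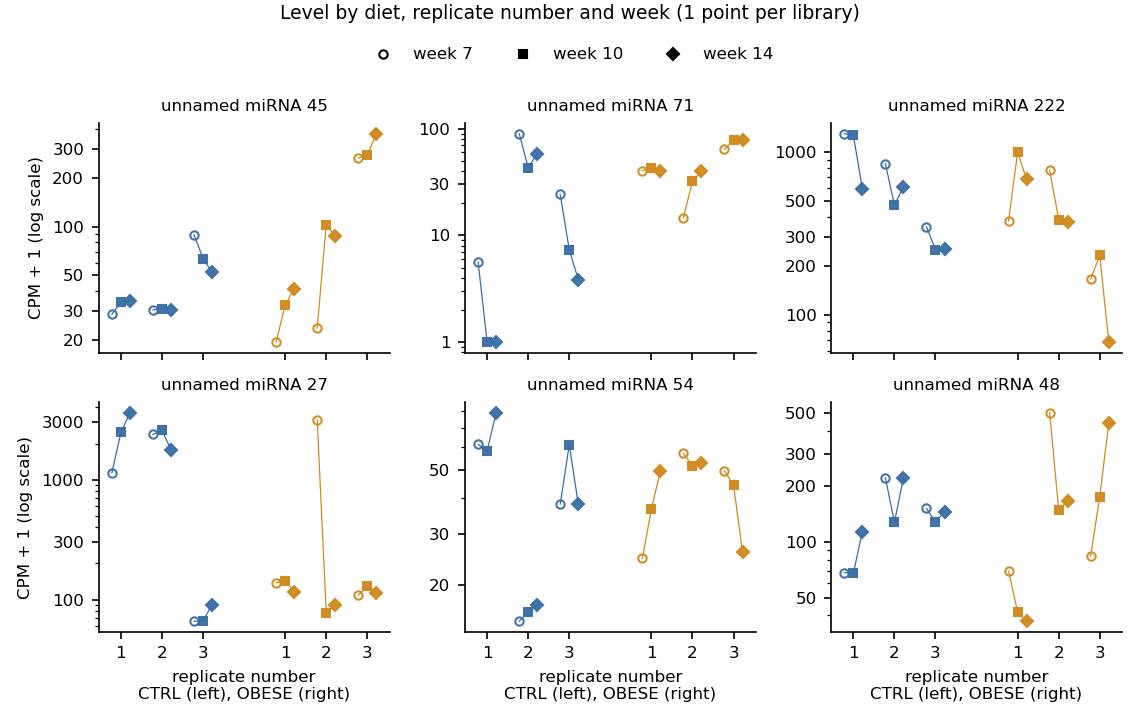
Level of 6 unnamed miRNAs past the replicate number test in CPM + 1 on a log scale (vertical axes), 1 point per library, by replicate number (horizontal axes) with CTRL in the left and OBESE in the right of each panel and symbols for weeks 7, 10 and 14. Unnamed miRNA 45 is highest in the 3 libraries of OBESE replicate 3 (263 to 372 CPM), and unnamed miRNA 54 is lowest in the 3 of CTRL replicate 2 (13.9 to 16.0 CPM).

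Unnamed miRNAs 45, 46, 71 and 222 passed in all 18 fits that left out 1 library, and unnamed miRNA 27 in 15. It missed without CTRL week 7 replicate 3 (edgeR adjusted p = 0.0548), CTRL week 10 replicate 2 (0.0538) or CTRL week 10 replicate 3 (0.0745). Unnamed miRNA 224 passed in 11 fits, 31, 48, 54 and 80 in 9 each and 61 in 6. The count of 11 unnamed calls rose to 26 without CTRL week 7 replicate 1, to 20 without OBESE week 7 replicate 2, and to 18 without OBESE week 7 replicate 3 or CTRL week 14 replicate 3. It fell to 4 without CTRL week 7 replicate 3, CTRL week 10 replicate 2 or CTRL week 10 replicate 3, to 5 without OBESE week 10 replicate 3 or CTRL week 14 replicate 2, to 6 without CTRL week 7 replicate 2 and to 7 without OBESE week 10 replicate 1. These fits tested 176 to 181 features, and 1 to 4 named features passed in them. Without the filter on low counts the count was 29 of 257 unnamed miRNAs, with 34 of all 364 features called. Without scaling factors it was 13, of which 9 were shared, and 54 and 80 were lost (edgeR adjusted p = 0.0755). Both were also lost without the 2 libraries with low scaling factors (0.0703). Unadjusted, 32 unnamed miRNAs had a p under 0.05 (background 25.6%). Replicate number took a median of 46.3% of the variance around the group means among the unnamed and 46.8% among the named features, where 4 of 12 degrees of freedom would give 33.3%. What stands behind the numbers was not tested.

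Unnamed miRNAs varied more between libraries than named ones over all tested features, and less clearly so at like abundance. Spread was taken as the SD of log2 CPM around the group means, in log2 units. Its median was 0.559 over the 114 unnamed and 0.391 over the 54 named features. Below 30 CPM the medians were 0.844 (29 unnamed) and 0.939 (11 named), at 30 to 100 CPM 0.622 (27) and 0.554 (5), at 100 to 1000 CPM 0.405 (36) and 0.348 (19), and from 1000 CPM 0.322 (22) and 0.293 (19). The unnamed median was thus lower than the named one in the lowest class and higher in the other 3, and no test was run over features.

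Among the 52 unnamed miRNAs averaging at least 100 counts, the steadiest were unnamed miRNAs 7 (SD 0.159), 2 (0.170), 15 (0.190), 14 (0.214) and 29 (0.215). Unnamed miRNA 7 ranged only from 2465 to 3816 CPM over the 18 libraries. The spread was taken after scaling only. As unscaled shares of a library's counts, unnamed miRNA 7 ran more widely, from 0.162% to 0.400%, and unnamed miRNA 2 from 6.96% to 14.9%. The most variable were unnamed miRNA 27 (2.30, from 64.9 to 3612 CPM), 222 (1.16, 67.2 to 1299 CPM), 48 (1.16, 36.2 to 499 CPM), 244 (1.04, 36.5 to 713 CPM) and 51 (0.893, 25.5 to 273 CPM). Of these 5, 27, 222 and 48 also passed the replicate number test (background 8.93% of features). The spread ranked here includes the variance by replicate number, so this is no separate result. Replicate number took 10.4% to 69.9% of that variance in the 5 steadiest and 50.5% to 81.5% in the 5 most variable.

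**Figure D4:**
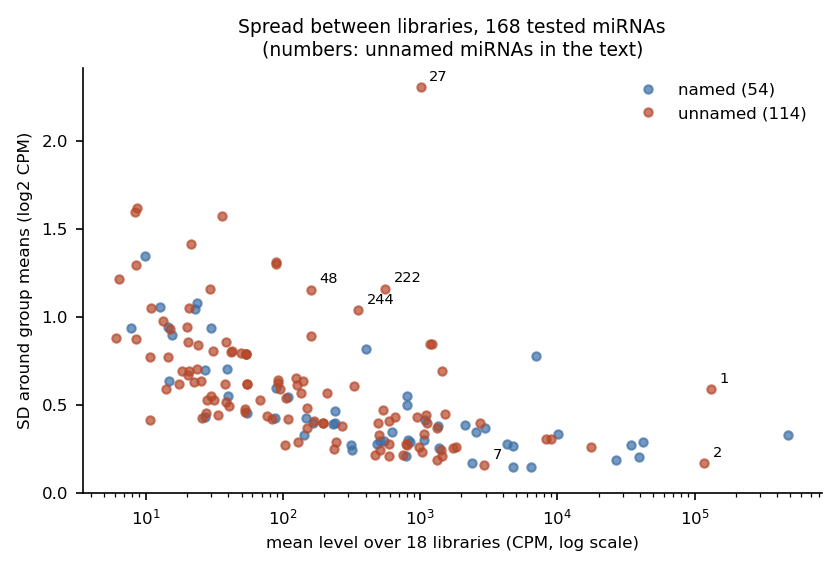
Spread between libraries, as the SD of log2 CPM around the means of the 6 groups (vertical axis), against mean CPM on a log scale (horizontal axis), 1 point per tested feature, for 114 unnamed and 54 named features. Spread falls with abundance in both, and unnamed miRNA 27 lies far above the rest at 2.30.

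Correlations with named miRNAs were taken as Pearson's r of log2 CPM around the group means over the 18 libraries. They are descriptions without a test: the values share libraries, depth and scaling, and possibly ewes. The closest named feature of an unnamed miRNA had a median r of 0.675 (0.265 to 0.900), and 18 of 114 reached 0.8. Named features among themselves had a median of 0.719 for their closest partner, and 12 of 54 reached 0.8. The highest pair was unnamed miRNA 20 with let-7b (0.900), followed by 7 with miR-150 (0.878), 47 with miR-21 (0.876), 34 with miR-30d (0.864), 30 with miR-191 (0.859) and 38 with miR-103 (0.858). These pairs were picked after their values were seen.

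Among the 10 most abundant, unnamed miRNA 1 was closest to miR-107 (0.84, and 0.74 over the 16 libraries without the 2 with low scaling factors) followed by miR-25 of the red blood cell list (0.83 over 18 libraries) and miR-103 (0.83 and 0.79). With miR-16b, the most abundant named miRNA, its r was 0.77 over 18 libraries and 0.33 over 16, so that this relation rests on those 2 libraries. Unnamed miRNA 2 was closest to miR-30d (0.68), and its r with unnamed miRNA 1 was -0.60. Unnamed miRNA 7 moved with miR-150, a lymphocyte miRNA, over a far smaller range: 2465 to 3816 CPM beside 2363 to 26777 CPM. That r was 0.88 over 18 and 0.87 over 16 libraries. Unnamed miRNAs 3 and 10 were closest to miR-29a (0.76 and 0.75), 5 and 11 to miR-27a (0.83 and 0.77), 4 to miR-409-3p (0.72), 6 to miR-30d (0.80) and 19 to miR-493-3p (0.56).

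**Figure D5:**
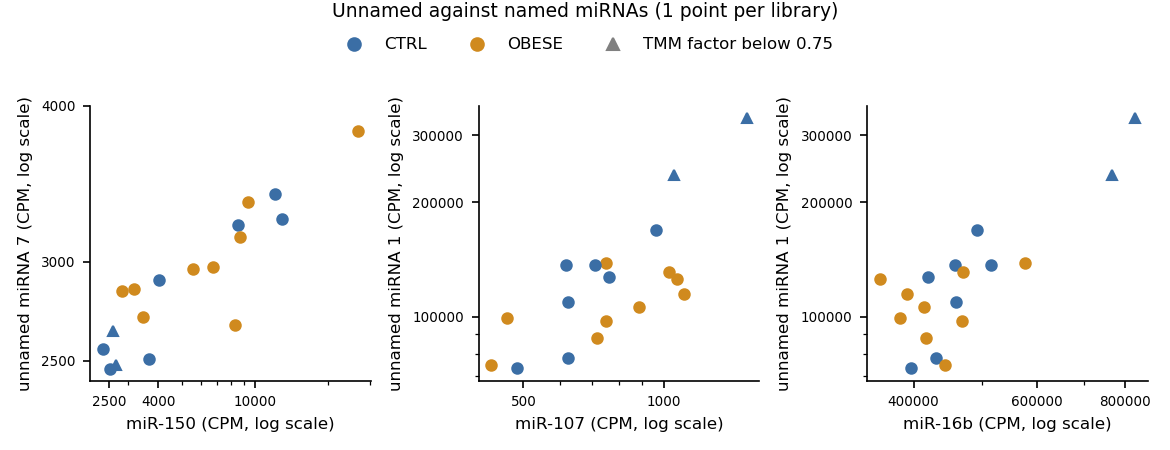
CPM of an unnamed miRNA (vertical axes) against CPM of a named one (horizontal axes), both on log scales and 1 point per library: unnamed miRNA 7 with miR-150, and unnamed miRNA 1 with miR-107 and with miR-16b. Triangles mark the 2 libraries with scaling factors below 0.75, which lie at the top right of the panel with miR-16b, where r around group means is 0.77 with and 0.33 without them.

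Unnamed miRNAs were also close to each other. The closest unnamed partner of unnamed miRNA 1 was 23 (r 0.89 over 18 libraries, 0.71 over 16), of 6 was 34 (0.91 and 0.94), of 5 was 62 (0.87), of 19 was 16 (0.86), of 11 was 6 (0.83) and of 10 was 30 (0.83). For unnamed miRNAs 3, 7 and 4 it was 108 (0.74), 12 (0.72) and 46 (0.70). Unnamed miRNA 2 had its closest partner in unnamed miRNA 111 (0.86), whose counts of 0 to 20 make that value weak. A set of 8, 222, 224 and 244, picked after the values were seen, had r from 0.862 to 0.917 over its 6 pairs. Of these, 222 and 224 passed the replicate number test (background 8.93% of features). That test uses the same deviations from the group means as these r, so it is no separate result.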

How the data were processed

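Plasma small RNA was sequenced in 18 libraries. Per the labels' protocols, RNA came from 200 µL of plasma, the QIAseq miRNA kit, with deduplication by molecular identifiers, was used for the libraries, and single reads of 76 bases were taken on an AVITI instrument. The authors deposited raw counts per miRNA feature, and whether these are molecules or reads is not given in the sources used here. Neither are the genome build, the prediction program or the handling of reads matching several features. Cutadapt 4.9, Bowtie 1.3.1 and DESeq2 1.42 are listed, without roles, per the submitters' processing notes. The series table and the library files differed in 0 values.

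Counts were tested in R 4.3.3 with edgeR 4.0.16 (TMM, filterByExpr by group with minimum count 10 and total 15, quasi-likelihood F tests over 6 groups of diet and week, two-sided). Benjamini-Hochberg adjustment ran over all 168 features tested. The SE was derived from the fold change and the root of F and is approximate. Replicate number within diet was an F test of 4 added terms. Library measures were compared over all 8000 assignments of diets within weeks. Correlations and spread used log2 CPM with a prior count of 2. DESeq2 1.42.0 and limma-voom (limma 3.58.1) were alternatives, with other scalings, filters, tolerances and each library left out. The edgeR tests of the averaged diet difference and of replicate number were checked on simulated data. So were the permutation within weeks and the expected number at equal depth. The other comparisons and tools were not. The members, lists and tests were chosen with earlier results of these data known. Unnamed miRNAs named in the text are the 10 most abundant, those past an adjusted p of 0.05 or otherwise the 5 with the smallest p for the averaged diet difference and the 3 with the smallest p for each other comparison, the near-identical groups, the 5 most and 5 least variable averaging at least 100 counts, and the closest partners of the 10 most abundant. Exceptions are marked in the text as picked after their values were seen.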

Additional observations from a re-analysis of the deposited data

Results flagged for a closer look

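The share of unnamed miRNA 2 in OBESE week 7 replicate 3, 10.8% of that library's counts, lay apart from the other 8 OBESE libraries, of which the next lowest was at 12.3%. The gap was 0.515 of the whole range, above Dixon's critical value of 0.493 for 9 samples. This holds for unscaled shares, and the library had a scaling factor of 0.891 and a miR-16b share of 51.4%. On the CPM scale the lowest OBESE value of unnamed miRNA 2, 102859, was in another library. In all, 28 groups of libraries and measures were examined this way, and chance alone marks about 1 in 20. Groups of 3 libraries were not examined.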

How the results depend on the processing

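The count of unnamed miRNAs past the averaged diet test, 0, was 0 to 1 with each library left out in turn. Without the filter on low counts it was 3 (27, 45 and 46), of 4 called among 364 features. With DESeq2, also run on 364 features, it was 2 (22 and 27), of 3 called. The count for replicate number within diet, 11 of 114, was 29 of 257 without the filter and 4 to 26 with 1 library left out. All other tests across features gave 0 unnamed calls under every alternative run. The diet difference in the unnamed share of counts was -1.05 to 0.406 percentage points over the fits leaving out 1 library, positive in 5 of 18. Outside unnamed miRNAs 1 and 2 it was 0.0470 to 0.75, and -0.333 without the 2 libraries with low scaling factors. Unnamed miRNA 27 at week 10 against week 7 in OBESE had log2 fold changes of -3.73 to 0.0657, the last without OBESE week 7 replicate 2, its single high OBESE library. For the other changes the cause was not tested. Near-identical groups numbered 5 at a tolerance of 1%, 7 at 10% and 6 with a mean of at least 20 counts. With the replicate number as a block, 0 unnamed miRNAs passed any diet, week or interaction test. For the week and interaction tests the block was the number within a diet. For the diet tests it joined equal numbers of both diets, which the labels do not pair. Deviations of such libraries from the group means correlated at a median of 0.06 within a week. The diet tests were thus not blocked for the number within a diet. In the pairing check, same-numbered libraries of 1 diet had deviations from the group means that correlated at -0.02 to 0.69 (median 0.35, 16 of 18 pairs over 0.1), other-numbered ones at a median of -0.17, and 17 of 18 libraries were closest to their own number. Deviations of the 3 libraries of a group sum to 0, so positive values for equal numbers pull those for other numbers below 0. The closeness of equal numbers is a hint from the data, not the design. The library measures were also compared with 1 mean over weeks per diet and replicate number (20 assignments). Exact permutation p was then 0.9 for the unnamed share and 0.4 outside unnamed miRNAs 1 and 2. It was 0.6 for the number with at least 1 count and 0.4 at equal depth. Depth limits the 143 untested unnamed miRNAs, and differences near 3 counts were not detectable.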
